A study of Homo sapiens with 4 samples.

Results

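The cytosolic ribosomal protein genes, 57 of the 18417 genes named by a probe set with 1 symbol, were described in 4 prostate cancer cell samples. Members were chosen by an annotation rule that used no array values, though earlier results of these data were known. It took every probe set whose single symbol is RPL or RPS plus a number (optional A or X), RPSA, RPLP0, RPLP1 or RPLP2. Kinases of the RPS6K family, RPS27L and pseudogenes were not taken. They were 90 of 33297 probe sets and read 36 genes of the large subunit with 56 probe sets and 21 of the small subunit with 34. Of the 77 genes that the rule names in the RefSeq table, 20 were not analysed here, among them RPLP0, RPSA and RPS27A, and 11 of these 20 were read only by probe sets that carry several symbols.

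The study hybridised 1 whole-transcript array for each of 4 samples. LTAD cells transfected with siPSF, an siRNA against PSF (the product of SFPQ), were set against LTAD cells transfected with a control siRNA, siControl. Untransfected LTAD cells, a subline of LNCaP obtained by long androgen deprivation, were set against parental LNCaP cells, an androgen-responsive line. LTAD cells grew in medium without phenol red that held 10% charcoal-stripped serum, and LNCaP cells spent 24 h in such medium with 2.5% stripped serum, so line and culture cannot be told apart. Every group was 1 array of 1 line, so no test across samples was possible and every difference below lies between 2 single arrays.

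Levels are on the log2 scale after quantile normalization of the 4 arrays, because the deposited columns were not on one scale: their medians over all probe sets were 6.04 for siPSF, 5.98 for siControl, 7.20 for LTAD and 6.91 for LNCaP. A probe set was used in counts if its mean over the 4 arrays reached 7.21, the median of all probe sets with 1 symbol, which 9730 of 19460 did. SFPQ, the siRNA target, read 9.87 with siPSF and 11.23 with siControl. Of 8 luminal prostate markers, 4 had a named probe set and all 4 passed that filter. HOXB13 read 10.70 to 10.93 and FOXA1 11.55 to 11.83 over the arrays. KLK3 read 7.11 with siPSF (under the filter value), 7.47 with siControl, 11.06 in LTAD and 12.89 in LNCaP. KLK2 read 8.11 with siPSF, 8.45 with siControl, 9.35 in LTAD and 9.31 in LNCaP. All 3 leukocyte and both endothelial markers lay under the filter value, as did 2 of 3 stromal markers (COL1A1 read 7.68 to 7.99).

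Ribosomal proteins bind the ribosomal RNAs to form the small subunit, which decodes the mRNA, and the large subunit, which joins amino acids and lets the peptide out through a tunnel. Their mRNAs are among the most abundant in growing cells, and most begin with a C and a run of pyrimidines, the terminal oligopyrimidine (TOP) element through which mTOR and the protein LARP1 control their translation. Dividing prostate cancer cells depend on this machinery, and ribosomal proteins set free when assembly stalls are known to bind MDM2 and stabilise p53.

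Gene starts in the RefSeq promoter table (GRCh38.p14) were found for 48 of the 57 genes. At the annotated start, 33 of these 48 genes (68.8%) had a C followed by at least 4 pyrimidines, against 1104 of 27305 promoters in the table (4.04%). The run was found in 20 of 30 large subunit genes and 13 of 18 small subunit genes. The windows below cover 30 bases before to 20 bases from the annotated start for genes with the highest and lowest siControl over LTAD differences, for RPS6, and for 3 genes without the run. Capitals mark the pyrimidines that begin at the annotated start. They lie at chr5:82278335-82278384 (minus strand) for RPS23, chr5:150449720-150449769 (minus) for RPS14, chr2:101002259-101002308 (plus) for RPL31, chr11:8682762-8682811 (plus) for RPL27A, chr11:119018324-119018373 (minus) for RPS25 and chr11:17077648-17077697 (minus) for RPS13. The others lie at chr9:19380217-19380266 (minus) for RPS6, chr6:35468371-35468420 (plus) for RPL10A, chr1:23691749-23691798 (plus) for RPL11 and chr3:12841546-12841595 (minus) for RPL32.
RPS23: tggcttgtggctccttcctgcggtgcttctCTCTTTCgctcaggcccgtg
RPS14: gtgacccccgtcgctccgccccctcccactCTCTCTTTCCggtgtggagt
RPL31: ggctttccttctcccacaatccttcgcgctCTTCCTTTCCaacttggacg
RPL27A: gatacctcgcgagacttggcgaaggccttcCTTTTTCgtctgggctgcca
RPS25: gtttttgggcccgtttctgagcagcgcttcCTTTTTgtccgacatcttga
RPS13: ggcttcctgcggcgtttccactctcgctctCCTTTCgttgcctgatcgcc
RPS6: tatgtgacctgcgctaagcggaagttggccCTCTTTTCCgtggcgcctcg
RPL10A: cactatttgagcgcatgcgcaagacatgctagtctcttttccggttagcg
RPL11: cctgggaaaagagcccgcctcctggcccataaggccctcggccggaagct
RPL32: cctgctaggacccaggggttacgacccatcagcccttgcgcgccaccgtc

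The run was present at the starts of RPS23 and RPS14, which read higher in siControl than in untransfected LTAD, and of RPL27A, RPS25 and RPS13, which read lower. In the longer window of 250 bases before to 50 after the start, on both strands, the ETS core CCGGAAG stood in 35.4% of the member promoters and 10.7% of all promoters. CTTTCC, which can lie inside the run at the start, stood in 45.8% and 26.3%, and the YY1 core AAGATGG in 12.5% and 6.06%. The E-box CACGTG was in 4.17% of the member promoters against 7.43% of all, and TATAAA in 8.33% against 12%. These are matches of letters, not binding sites, and the annotated start was not shown to be the one used in these cells.

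Of the 90 probe sets, 87 passed the level filter, 54 of the large and 33 of the small subunit, covering 56 genes. The 3 that did not were the only probe set of RPL22, 1 of 2 for RPL34 and 1 of 2 for RPS15. Probe sets of these genes share sequence with many processed pseudogenes, so readings of a single locus are uncertain, and 2 probe sets of RPL41 held the same values in all 4 arrays.

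**Figure D1:**
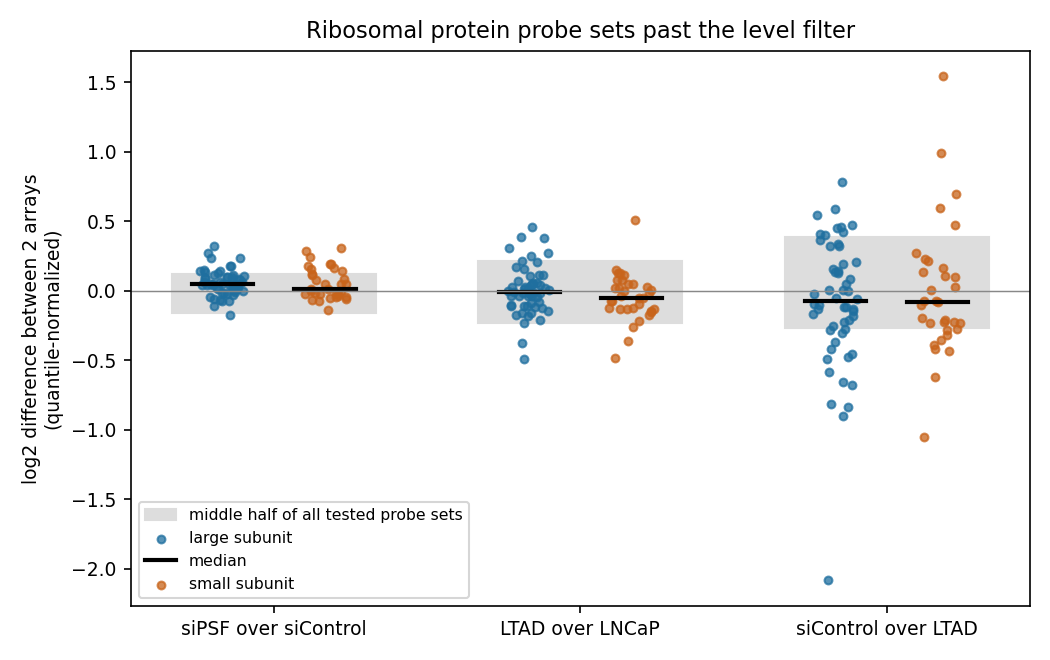
Log2 differences between 2 arrays (vertical axis, quantile-normalized) for the 54 large and 33 small subunit probe sets past the level filter, 1 point per probe set, with black medians and a grey band for the interquartile range of all 9730 tested probe sets. Members span -0.18 to 0.33 for siPSF over siControl and -2.08 to 1.55 for siControl over LTAD.

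The study knocked down PSF to see its effect on expression in the castration-resistant subline. Ribosomal protein mRNAs lay close together in the siPSF and siControl arrays, slightly on the higher side with siPSF. The median log2 difference over the 87 probe sets was 0.045, against -0.013 over all tested probe sets, and single members ran from -0.18 to 0.33. With siPSF 59 of 87 (67.8%) were above 0, where 47.4% of all tested probe sets were. No member was 2-fold apart, against 0.627% of all tested, and 1 of 87 was at least 0.32 apart on the log2 scale (the smaller fold counted here), against 15.8%. That one was a dim probe set of RPL27A, at 7.49 with siPSF and 7.16 with siControl. Among probe sets with a mean of at least 10, none of 73 members was 0.32 apart, and 9.58% of all 1953 such probe sets were. The count depended on the control array: with untransfected LTAD in place of siControl, 31 of 87 were 0.32 apart, where 52.0% of all tested were, and the median was -0.021 against 0.045 over all tested.

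RPL10A, a protein of the L1 stalk where spent tRNA leaves the ribosome, had the highest gene difference at 0.24. It read 11.32 with siPSF, 11.08 with siControl, 11.57 in LTAD and 11.46 in LNCaP, so the siPSF array lay between siControl and both untransfected arrays. RPS3A, a small subunit protein near the mRNA exit, was read by 5 probe sets, each higher with siPSF by 0.12 to 0.31. RPS27, a zinc-finger protein of the small subunit, differed by 0.19 in both of its probe sets, at 12.58 and 12.68 with siPSF against 12.38 and 12.49 with siControl. RPL13, of the large subunit, was higher by 0.11, 0.13 and 0.27 in its 3 probe sets.

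At the low end, RPL22 read 6.43 with siPSF and 6.63 with siControl, a difference of -0.20. Its protein sits at the exit side of the large subunit and has a paralog, RPL22L1, which read 8.44 with siPSF and 8.64 with siControl. RPL22 was under the filter value in all 4 arrays, so its readings are not shown to be above background. RPL32, of the large subunit, read 8.17 with siPSF against 8.34 with siControl, a difference of -0.18. The 2 probe sets of RPL34 disagreed, with the bright one at 12.44 against 12.38 and the dim one, under the filter value, at 5.34 against 5.71. RPL35A, one of the genes mutated in Diamond-Blackfan anaemia, an inherited failure of red cell production, read 13.38 with siPSF and 13.46 with siControl.

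LTAD was also set against LNCaP, its parental line. After quantile normalization the ribosomal protein set did not stand clearly to one side. Its median log2 difference was -0.015, against 0.0022 over all tested probe sets, with 38 of 87 above 0 where 50.3% of all tested were. No member was 2-fold apart (4.34% of all tested were), and 8 of 87 (9.2%) were at least 0.32 apart, 4 higher and 4 lower, against 35.0% of all tested (16.4% higher and 18.6% lower). On the deposited values 8 members were at least 0.32 higher and 0 lower, where 32.0% of all tested were higher and 9.88% lower, with a median of 0.099 where the median of all tested probe sets was 0.18. After median centring 1 was higher and 14 were lower, where 9.87% of all tested were higher and 26.4% lower. On both of these scales 23 of 87 members were above the median of all tested probe sets, and 37 were after quantile normalization.

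RPS29, a zinc-finger protein in the head of the small subunit, had the highest difference, 0.51. It read 8.17 with siPSF, 8.19 with siControl, 8.18 in LTAD and 7.67 in LNCaP, so the 3 arrays of the LTAD line lay together above LNCaP. RPL37A, a zinc-binding protein of the large subunit, read 10.51 in LTAD and 10.13 in LNCaP, with 9.88 for siPSF and 9.84 for siControl. RPL11, which with RPL5 and 5S ribosomal RNA forms the 5S particle that binds MDM2, read 11.99 in LTAD against 11.69 in LNCaP. In the transfected arrays it was at 11.74 with siPSF and 11.71 with siControl, close to LNCaP. RPS15, which lies in the head near the decoding site, was higher by 0.12 in its bright probe set and by 0.44 in the one under the filter value.

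RPS23, a protein of the decoding centre, had the lowest difference, -0.48, at 10.53 in LTAD and 11.02 in LNCaP. RPL28, of the large subunit, read 10.56 in LTAD against 10.94 in LNCaP. RPS24, another Diamond-Blackfan anaemia gene, read 10.51 in LTAD against 10.87 in LNCaP, with 10.98 for siPSF and 10.99 for siControl. RPL22 differed by -0.33 at levels under the filter value, and by 0.0081 on the deposited scale. When the siControl array stood for LTAD, the differences of RPS23, RPL28, RPS24, RPL22 and RPL37A from LNCaP turned sign, to 1.06, 0.080, 0.11, 0.40 and -0.30. RPS29 and RPL11 did not turn: against LNCaP they were higher by 0.51 and 0.30 in untransfected LTAD, and their siControl levels were 8.19 and 11.71 against 7.67 and 11.69 in LNCaP.

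The siControl and untransfected LTAD arrays came from one line and differed by transfection and by any array batch, which is not given. Here single ribosomal protein genes spread to both sides, with RPS23 and RPS14 higher and RPL27A, RPS25 and RPS13 lower in siControl, while the median stayed near 0. It was -0.078, against 0.055 over all tested probe sets, and 37 of 87 (42.5%) were above 0 where 55.0% of all tested were. In siControl 16 were at least 0.32 higher and 18 lower, 34 of 87 in all (39.1%), against 51.4% of all tested (29.5% higher and 21.9% lower). At 2-fold there were 3 of 87, against 9.13%. RPS23 was higher, where 5.63% of all tested were, and 1 probe set each of RPL27A and RPS25 was lower, where 3.49% were. The siControl array also serves as the control for siPSF, so both comparisons share it.

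The direction of the whole set in this comparison depended on the scale. On the deposited values the median was -0.70, with 2 members at least 0.32 higher and 73 lower, where 2.97% of all tested were higher and 84.4% lower. After median centring it was 0.52, with 52 higher and 5 lower, where 52.3% of all tested were higher and 10.2% lower. Over all tested probe sets the median was -0.87 on the deposited values and 0.35 after centring. Relative to that median of all, the ribosomal protein median lay at 0.17 on both of these scales and at -0.13 after quantile normalization. For siPSF over siControl the same relative value was 0.058 after quantile normalization and 0.11 on the other scales, and for LTAD over LNCaP it was -0.018 and -0.077. Among probe sets with a mean of at least 10, where most members lie, the relative value for siControl over LTAD was -0.14 after quantile normalization and 0.040 on the other scales. For siPSF over siControl it was 0.095 and 0.15 there, and for LTAD over LNCaP 0.0013 and -0.018.

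**Figure D2:**
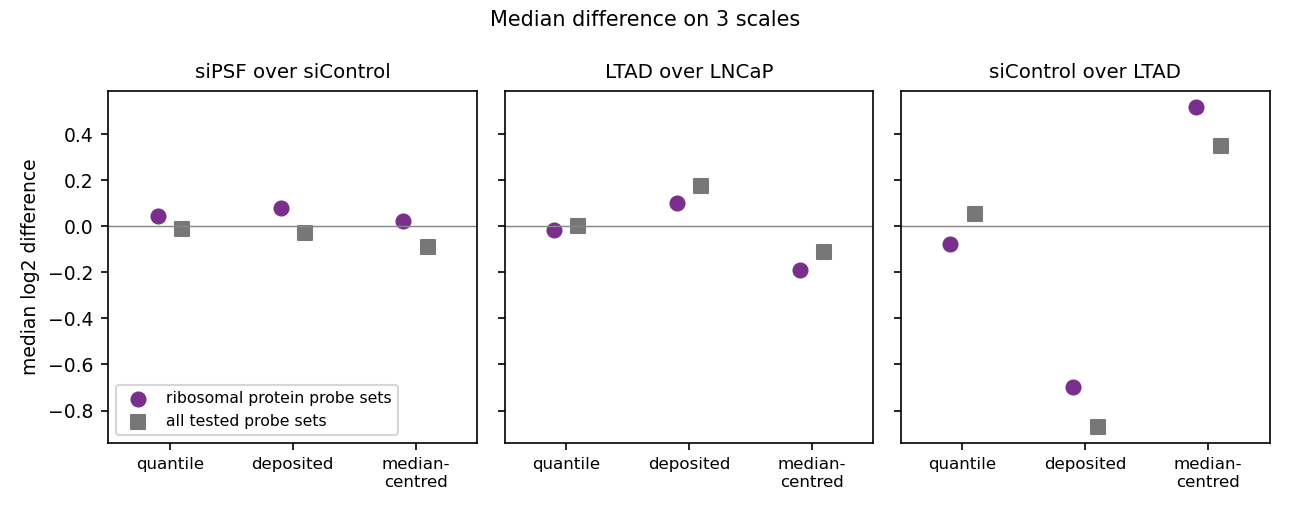
Median log2 difference (vertical axis) of the 87 ribosomal protein probe sets (circles) and of all 9730 tested probe sets (squares) after quantile normalization, on the deposited values and after median centring, in 3 comparisons. For siControl over LTAD the ribosomal protein median is -0.078, -0.70 and 0.52 on the 3 scales.

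RPS23 had the largest positive difference, 1.55, at 12.01 with siPSF, 12.08 with siControl, 10.53 in LTAD and 11.02 in LNCaP. Both transfected arrays were above both untransfected ones. RPS14, a platform protein whose gene lies in the region lost in the 5q- syndrome, read 13.48 with siPSF, 13.50 with siControl and 12.51 in each of LTAD and LNCaP, a siControl over LTAD difference of 0.99. RPL31, at the rim of the exit tunnel, was higher in both probe sets, by 0.47 and 0.79. On the deposited scale, which lowers all siControl readings, RPL31 was at -0.12 on average and RPL22, higher by 0.73 after quantile normalization, at -0.53. RPS19, the gene most often mutated in Diamond-Blackfan anaemia, read 12.06 with siPSF, 12.05 with siControl, 11.46 in LTAD and 11.31 in LNCaP, and its siControl over LTAD difference of 0.60 became -0.091 on the deposited scale.

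RPL27A, a large subunit protein, had the lowest difference, -1.21 on average over 3 probe sets that all read lower in siControl. The one that differed most read 8.15 with siPSF, 8.26 with siControl, 10.35 in LTAD and 10.08 in LNCaP, a difference of -2.08. The brightest read 11.41 with siPSF, 11.17 with siControl, 12.07 in LTAD and 12.31 in LNCaP. RPS25, a small subunit protein needed for internal initiation on some viral RNAs, differed by -1.06 and -0.39 in its 2 probe sets. RPL37A differed by -0.68, at 9.84 in siControl against 10.51 in LTAD. RPS13, of the small subunit, read 12.69 with siPSF, 12.54 with siControl, 13.16 in LTAD and 13.26 in LNCaP, a siControl over LTAD difference of -0.62. These differences also depended on the scale: after median centring RPS13 was at -0.0043, RPS25 at -0.18, RPL37A at -0.29 and RPL27A at -0.88.

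**Figure D3:**
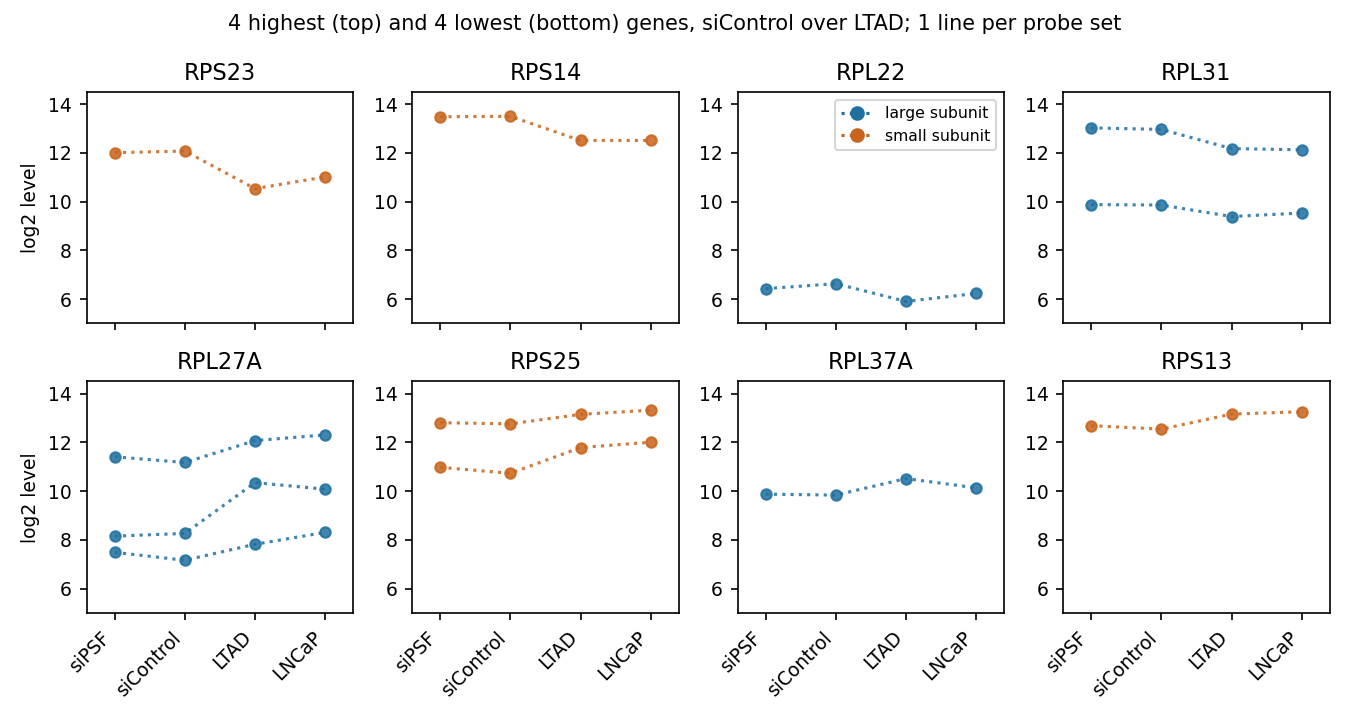
Log2 level (vertical axis, quantile-normalized) in the siPSF, siControl, LTAD and LNCaP arrays for the 4 highest genes (top row) and the 4 lowest (bottom row) by siControl over LTAD; points of 1 probe set are joined by a dotted line for reading only. In RPS23, RPS14, RPL31, RPL27A, RPS25 and RPS13 the 2 transfected arrays lie together, on one side of the 2 untransfected arrays.

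After quantile normalization the 2 transfected arrays mostly lay together, apart from the 2 untransfected ones. In 70 of 87 probe sets (80.5%) both transfected arrays lay on one side of both untransfected arrays, above them in 33 and below them in 37. Among all tested probe sets this held for 61.1%, above in 34.7% and below in 26.4%. It held for 41 of 54 large subunit probe sets and 29 of 33 small subunit probe sets. The median size of the difference, without sign, was 0.063 between siPSF and siControl, 0.10 between LTAD and LNCaP and 0.25 between siControl and LTAD, against 0.14, 0.22 and 0.33 over all tested probe sets. For siControl over LTAD the size was 0.53 against 0.44 after median centring, and 0.72 against 0.88 on the deposited values. Signs also depended on the scale. On the deposited values 83 of 87 members were below 0, where 9080 of 9730 tested were. After centring 76 of 87 were above 0, where 7410 of 9730 were. Array batch is not given in the sources used here, so transfection and any batch that separates the pairs cannot be told apart. SiControl against LNCaP, arrays that differ in line and transfection, had a median size of 0.27 and 34 of 87 at least 0.32 apart, where all tested probe sets had the same median size of 0.27 and 42.0% were that far apart.

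After quantile normalization several members hardly differed between any of the 4 arrays. Chosen after their values were seen, the steadiest probe sets were of RPS15A, which read 12.90 with siPSF, 12.92 with siControl, 12.89 in LTAD and 12.89 in LNCaP, of RPLP1 (1 of its 2), which read 12.07 to 12.11, and of RPL19, which read 10.71 to 10.75. RPL8 read 13.78 to 13.83 and RPL18 13.52 to 13.58. The range over the 4 arrays was under 0.1 in 7 of 87 ribosomal protein probe sets (8.05%) and in 1.21% of all tested. Among the 1953 probe sets with a mean of at least 10, it was under 0.1 in 1.84%. RPS6, the substrate of the S6 kinases downstream of mTOR, was among the 7, at 13.03 with siPSF, 12.99 with siControl, 13.06 in LTAD and 13.03 in LNCaP. RPS4X, the X-linked form of that small subunit protein, read 12.44 with siPSF, 12.37 with siControl, 12.64 in LTAD and 12.59 in LNCaP. The median range was 0.34 for the members, 0.52 over all tested and 0.47 over probe sets with a mean of at least 10. The steadiness depended on the scale. After median centring siControl over LTAD was 0.84 for RPL8, 0.74 for RPL18, 0.64 for RPS15A and 0.44 for RPL19. On the deposited values these genes were at -0.38, -0.48, -0.58 and -0.78. The medians of all tested probe sets were 0.35 after centring and -0.87 on the deposited values.

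The subunits were also described apart. For siPSF over siControl the median was 0.048 over 54 large subunit probe sets and 0.012 over 33 small subunit ones. Of these, 41 and 18 were above 0, where 47.4% of all tested were. These counts depended on the scale. On the deposited values they were 39 and 26, where 4291 of 9730 tested were above 0. After median centring they were 33 and 14, where 3209 of 9730 were. For LTAD over LNCaP the medians were -0.0089 for the large and -0.050 for the small subunit. In siControl over LTAD they were -0.077 and -0.078. The differences between the subunits, large minus small, were thus 0.036, 0.042 and 0.0005 after quantile normalization, and no test of them was possible. With 1 probe set a gene the last became -0.12, and with siControl LTAD against LNCaP the subunits differed by 0.18. For siControl over LTAD the widest small subunit probe sets were RPS23 at 1.55 and RPS25 at -1.06, and the widest large subunit one was RPL27A at -2.08.

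By role, the 2 proteins of the 5S particle, RPL5 and RPL11, lay close to 0 for siPSF over siControl, at 0.032 and 0.030. The 3 probe sets of RPL5 disagreed for siControl over LTAD, at 0.32, 0.40 and -0.81. Its 2 bright probe sets read 13.87 and 13.59 with siPSF, 13.85 and 13.53 with siControl, 13.53 and 13.13 in LTAD and 13.54 and 13.24 in LNCaP, and the dimmer one read 9.05, 9.03, 9.85 and 9.46 in that order of arrays. The stalk proteins RPLP1 and RPLP2, which recruit the GTPases of translation, differed by 0.064 and 0.052 for siPSF over siControl, and by 0.030 and 0.16 for siControl over LTAD. RPL12, at the base of that stalk, differed by 0.064 and -0.43, and its 4 probe sets ran from -0.84 to -0.05 in siControl over LTAD. After median centring RPL12 was at 0.062 there, RPL10A at 0.011 and RPS27 at 0.22, all of them below 0 after quantile normalization.

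Of 9 listed proteins around the exit tunnel 8 were measured. With siPSF 5 of 8 were above 0 and none was 0.32 from siControl, where 47.4% and 15.8% of all tested probe sets were. Against untransfected LTAD, 3 of 8 were at least 0.32 higher in siControl and 1 was lower, where 29.5% and 21.9% of all tested were. The 3 were RPL22 (under the filter value), RPL31 and RPL26, all below 0 on the deposited scale. The lower one was RPL35, at -0.58, and at -0.021 after median centring. All 5 proteins listed at the mRNA entry and decoding site were measured, with a median of -0.024 for siPSF over siControl and of 0.28 for siControl over LTAD, where RPS23 was highest and RPS9 lowest at -0.23. The 6 measured genes of 7 whose proteins bind MDM2 had medians of 0.013 for siPSF over siControl, 0.018 for LTAD over LNCaP and 0.0018 for siControl over LTAD. In the last comparison these genes ran from -0.28 (RPL11) to 0.99 (RPS14). There 2 of 6 were at least 0.32 higher and 0 that much lower, where 29.5% and 21.9% of all tested were. Of 11 listed Diamond-Blackfan anaemia genes 8 were measured, and 4 of them were above 0 for siPSF over siControl, where 47.4% of all tested were. For siControl over LTAD 3 of these 8 were at least 0.32 higher, with RPS19 highest at 0.60, and 0 were that much lower. Of all tested, 29.5% were higher and 21.9% lower. FAU, which encodes a small subunit protein fused to a ubiquitin-like domain, read 10.56 with siPSF and 10.58 with siControl.

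Probe sets of one gene often gave different sizes and sometimes different signs. Of the 21 genes with 2 or more member probe sets, 7 had both signs for siPSF over siControl, 9 for LTAD over LNCaP and 6 for siControl over LTAD. The median spread between the probe sets of a gene was 0.051, 0.16 and 0.32 in these comparisons. It was over 0.5 in 0, 4 and 6 genes, with RPL27A widest in each at 0.44, 0.76 and 1.43. These counts include the probe sets of RPL34 and RPS15 that lay under the filter value. Other genes with several probe sets were not counted in this way, so no share stands beside these counts. RPS2, a protein at the mRNA entry, had 3 probe sets at 0.13, 0.17 and 0.70 for siControl over LTAD, whose mean turned to -0.17 on the deposited scale. RPL13 had -0.45, -0.25 and 0.36 there. The median sizes of the differences themselves were 0.063, 0.10 and 0.25.

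**Figure D4:**
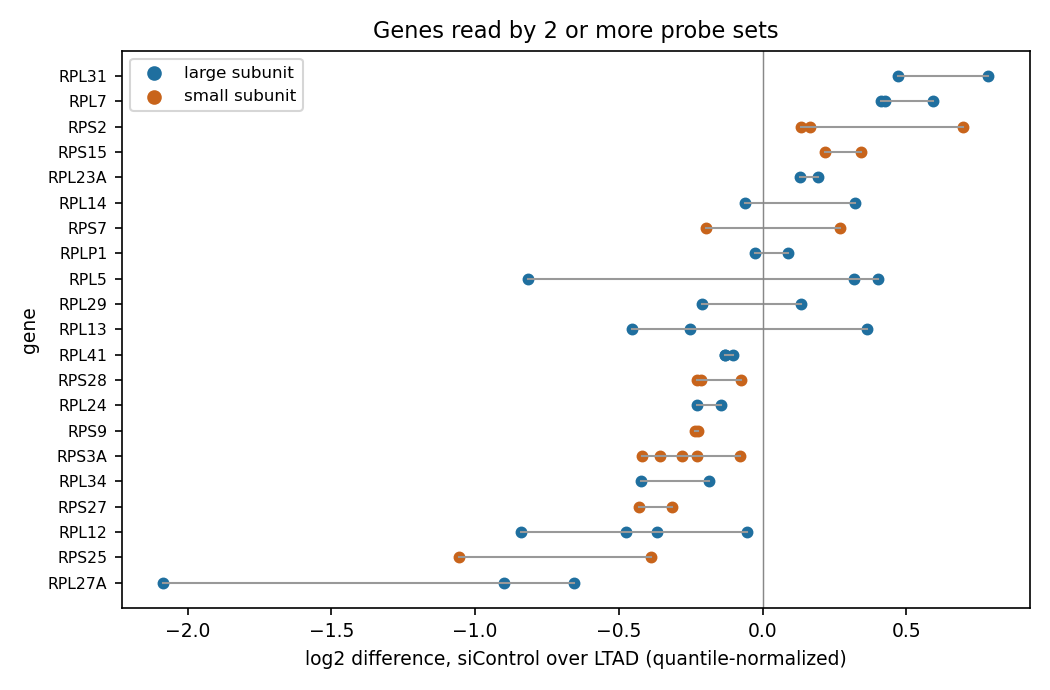
Log2 difference siControl over LTAD (horizontal axis, quantile-normalized) of every member probe set for the 21 genes with 2 or more, ordered by gene mean; grey lines join the probe sets of a gene. RPL5 spans -0.81 to 0.40 and RPL27A -2.08 to -0.66.

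Other genes of translation and ribosome production are given with 1 probe set a gene, on which the ribosomal protein median was 0.039 for siPSF over siControl, and 47.4% of all tested probe sets were above 0. Of 17 measured assembly factors 2 were above 0, with a median of -0.14, and NMD3, the export adaptor of the large subunit, was lowest at -0.38. RNA polymerase I genes had 4 of 12 above 0 and a median of -0.20, and mitochondrial ribosomal proteins 16 of 68 and -0.12. Other TOP mRNA genes had 11 of 20 above 0 and a median of 0.060, with EEF1D, an elongation factor subunit, lowest at -0.51. In the list of TOP and S6 control genes, DDIT4, an inhibitor of mTOR signalling, was higher with siPSF by 0.91, at 10.68 against 9.77, and RPS6KB1, an S6 kinase, differed by -0.36. In siControl against LTAD 12 of 17 assembly factors were at least 0.32 higher, with a median of 0.51, where the ribosomal protein median was 0.0003 with 1 probe set a gene and 29.5% of all tested were that much higher. For LTAD over LNCaP the assembly factors had a median of -0.23 and 7 of 17 at least 0.32 lower, where 18.6% of all tested were. The values of all these lists are given after quantile normalization only.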

How the data were processed

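Per the submitters' processing notes, the authors ran RMA in Affymetrix Expression Console, and they deposited log2 values per probe set. Versions, and which arrays were normalized together, are not given in the sources used here. From these values the 4 arrays were quantile-normalized together over all 33297 probe sets. Gene names came from the platform annotation, updated through Entrez IDs to RefSeq (GRCh38.p14), which matched 19429 of 19460 with 1 symbol. Another 1754 had several symbols, and 12083 were unnamed here. Each comparison was a log2 difference between 2 arrays, counted at 0.32 or more (the smaller fold) and at 2-fold. With 1 array a group there is no test, and precision is limited by the number of arrays. No detection call was used. Named genes were the 4 highest and 4 lowest of each comparison, the 5S particle, stalk and ubiquitin-fusion genes, RPS6, RPSA, RPL22 and RPS4X, and up to 2 at each end of other lists; RPL8, RPL18, RPL19, RPS15A, RPS19, RPL7, RPL26, RPL35, RPS2, RPS9 and RPS20 were added after their values were seen. A gene with several probe sets was given as their mean. Alternatives were the deposited values, median centring, 1 probe set a gene, no level filter, bright probe sets only and another LTAD array. The computation was tested on simulated data. Members and lists were chosen with earlier results of these data known. Python 3.11.15, numpy 2.4.6, pandas 2.3.3 and scipy 1.17.1 were used.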

Additional observations from a re-analysis of the deposited data

How the results depend on the processing

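No paired analysis was possible because each group held 1 array. A value without a test counted as moved past 0.1 on the log2 scale, and a count past 1.5 times. For siPSF over siControl the number of ribosomal protein probe sets at least 0.32 apart, 1 in the main setting, was 0 after median centring, 0 with 1 probe set a gene, 2 with no level filter, 0 with bright probe sets only and 31 with untransfected LTAD as the control. Of all tested probe sets 15.8% were that far apart in the main setting and 52.0% with untransfected LTAD. Among all bright probe sets 9.58% were. For LTAD over LNCaP the median was 0.099 on deposited values and -0.19 after median centring. The count of 8 became 15 after centring, 5 with bright probe sets only and 34 with siControl LTAD, where large minus small was 0.18. Of all tested 35.0% were that far apart in the main setting and 42.0% with siControl LTAD. After centring 9.87% of all tested were higher and 26.4% lower, and 28.5% of all bright probe sets were apart in the main setting. For siControl over LTAD the median was -0.70 on deposited values and 0.52 after centring. The count of 34 became 75 on deposited values, 57 after centring and 20 with 1 probe set a gene. Of all tested 51.4% were that far apart in the main setting. On deposited values 2.97% of all tested were higher and 84.4% lower, and after centring 52.3% were higher and 10.2% lower. With 1 probe set a gene large minus small was -0.12. The deposited columns differ in median, which shifts every difference by construction; 1 probe set a gene and bright probe sets leave fewer members (56 and 73). Other causes were not tested. Among 37 named genes, signs were followed where the main difference was at least 0.32, which held for 0 genes in siPSF over siControl, 6 in LTAD over LNCaP and 18 in siControl over LTAD. Of these, signs turned for LTAD over LNCaP in RPL22 on deposited values (0.0081) and, with siControl LTAD, in RPL22 (0.40), RPL28 (0.080), RPL37A (-0.30), RPS23 (1.06) and RPS24 (0.11). For siControl over LTAD they turned on deposited values in RPL22 (-0.53), RPL26 (-0.46), RPL28 (-0.33), RPL31 (-0.12), RPL7 (-0.14), RPS19 (-0.091), RPS2 (-0.17) and RPS24 (-0.32), and after centring in RPL10A (0.011), RPL12 (0.062) and RPS27 (0.22). Smaller differences also turned, in 10 genes on deposited values, 13 after centring, 5 with 1 probe set a gene and 12 with siControl LTAD for LTAD over LNCaP, and in 8 on deposited values, 9 after centring, 1 with 1 probe set a gene and 5 with siPSF LTAD for siControl over LTAD. For siPSF over siControl, signs turned in 6 genes on deposited values, 7 after centring, 1 with 1 probe set a gene and 20 with untransfected LTAD as the control.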

Other observations

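Paralogs that the rule left out did not follow one direction. RPL7L1, a relative of RPL7, read 10.07 with siPSF, 10.38 with siControl, 11.31 in LTAD and 11.11 in LNCaP, a siControl over LTAD difference of -0.94, where the 3 probe sets of RPL7 were higher by 0.41 to 0.59 (on the deposited scale their mean was -0.14). RPL26L1 was higher by 0.56 and RPL36AL by 0.35 in the same comparison. RPS27L, a p53-induced paralog of RPS27, differed by 0.20 for siPSF over siControl, close to 0.19 for RPS27. RPL3L and RPL39L lay under the filter value in every array, at 6.63 to 6.96 and 3.96 to 4.14, and RPL10L read 8.23 to 8.34.

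Of 21 probe sets named for ribosomal protein pseudogenes alone, 10 passed the level filter, and 9 of these were above 0 for siPSF over siControl, where 47.4% of all tested probe sets were, with a median of 0.15. RPS14P3 read 8.27 with siPSF, 8.07 with siControl, 6.50 in LTAD and 6.75 in LNCaP. Only its transfected arrays lay above the filter value, so its LTAD and LNCaP readings are not shown to be above background. Its siControl over LTAD difference was 1.58, beside 0.99 for RPS14, and its size is uncertain for that reason. RPS20P27 read 9.12 with siPSF, 8.58 with siControl, 9.32 in LTAD and 9.54 in LNCaP, while RPS20 stayed within 12.67 to 12.83. How far these probe sets read transcripts of the parent genes was not tested.

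Cytosolic aminoacyl-tRNA synthetases, which load tRNAs for the ribosome, lay apart from the ribosomal protein median in the comparisons that involve untransfected LTAD. For siControl over LTAD 18 of 19 were above 0 and 14 at least 0.32 higher, where 55.0% and 29.5% of all tested probe sets were, with a median of 0.53 and GARS1 highest at 1.56. For LTAD over LNCaP 12 of 19 were at least 0.32 lower, where 18.6% of all tested were, with a median of -0.39. Both comparisons use the same LTAD array. These values are given after quantile normalization only. On the deposited values 2.97% of all tested were at least 0.32 higher and 84.4% lower for siControl over LTAD. VIM, the intermediate filament vimentin and one of the listed TOP mRNA genes, read 9.31 with siPSF, 9.03 with siControl, 7.15 in LTAD and 7.84 in LNCaP. Its LTAD reading lay under the filter value and is not shown to be above background.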
